A study of Mus musculus with 8 samples.

Results

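Genes known as targets of the tumour suppressor p53, with roles in DNA repair and in the control of metabolism under stress, were followed in mouse melanomas grown in hosts with and without TNF receptors. The 10 listed genes were Sesn1, Sesn2, Ddit4, Fdxr, Rrm2b, Polk, Xpc, Ddb2, Phlda3 and Rps27l. They were chosen by name, with earlier results of these data known, and read through the probe sets that the array annotation maps to 1 of them alone. Of the 10 listed genes, 9 were found among 18193 genes on the array, with 20 probe sets in all, and Fdxr was not analysed here. The brightest probe set stood for each gene, and the 11 other probe sets, belonging to 6 of the genes, served as a check. All 9 genes reached the level for testing, a mean signal of about 68.8 that is the median over all probe sets other than controls, as did 11345 genes in all.

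Tumours of 4 groups were compared. B16F1 melanoma cells, an established line from C57BL/6 mice, were injected under the skin of the right hind limb (5 to 7 mice of each host, 8 to 12 weeks old), and tumours grew to between 268 and 478 cubic mm. The groups were TNFR KO hosts (B6;129S-Tnfrsf1a[tm1Imx] Tnfrsf1b[tm1Imx]/J, lacking TNF receptors 1 and 2) given a single 20 Gy dose of X-rays to the tumour-bearing limb, TNFR KO hosts left untreated, wild-type C57BL/6-NCr hosts (WT) given the same dose, and WT hosts left untreated. Tumours were excised 5 h after treatment, total RNA of whole tumours was pooled within each group, and each pool was measured on 2 Affymetrix arrays. The labels give a C57BL/6 background for every host, although the strain name of the knockout includes 129S. The receptor deletions are in the host, and the injected tumour cells were the same line in both hosts. With 1 pool per group and technical duplicates, no spread between animals enters any value, and in whole tumours fewer cells of a type and less RNA per cell cannot be told apart.

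In cells with damaged DNA, p53 is stabilised and switches on genes that halt the cell cycle, promote cell death, assist repair and adjust metabolism. Sestrins and Ddit4 restrain the growth kinase complex mTORC1, and Phlda3 restrains the survival kinase Akt. Polk serves DNA synthesis past lesions, Rrm2b nucleotide supply, and Xpc and Ddb2 the removal of damaged stretches of DNA. Whether all of these genes respond to p53 to the same degree differs between human and mouse cells, with Ddb2 known as a p53 target in human cells but as a poor one in mouse cells.

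Promoter windows from RefSeq (build GRCm38.p6, 250 bases before to 50 after a start site) matched 7 of the 10 listed genes, with 10 windows in all. Each was searched for the p53 consensus, a pair of adjacent half-sites without a spacer that reads the same on both strands, for the hypoxia response core ACGTG and for the ATF4-type element TTGCATCA, both of these on either strand. The windows of the 3 genes called higher after irradiation are shown, one of the 2 starts for Polk, together with the window of the second Rps27l start, the only one of the 10 with at most 1 mismatch to the p53 consensus. Capitals mark that 20-base site in Rps27l and TTGCATCA in Polk, and Phlda3 and Sesn2 hold none of the 3 motifs.
Phlda3 (chr1:135765835-135766134, plus strand): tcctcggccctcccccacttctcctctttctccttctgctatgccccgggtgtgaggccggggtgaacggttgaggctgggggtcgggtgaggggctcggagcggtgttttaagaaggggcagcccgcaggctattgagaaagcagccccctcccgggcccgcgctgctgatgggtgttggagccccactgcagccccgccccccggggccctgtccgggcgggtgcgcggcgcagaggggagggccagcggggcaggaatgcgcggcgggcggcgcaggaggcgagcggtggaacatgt
Sesn2 (chr4:132510407-132510706, minus strand): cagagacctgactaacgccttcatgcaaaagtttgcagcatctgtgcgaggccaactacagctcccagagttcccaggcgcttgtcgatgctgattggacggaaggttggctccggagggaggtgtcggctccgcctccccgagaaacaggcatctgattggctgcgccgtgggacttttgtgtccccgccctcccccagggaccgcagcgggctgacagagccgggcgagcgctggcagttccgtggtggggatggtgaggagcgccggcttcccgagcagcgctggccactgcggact
Polk (chr13:96519138-96519437, minus strand): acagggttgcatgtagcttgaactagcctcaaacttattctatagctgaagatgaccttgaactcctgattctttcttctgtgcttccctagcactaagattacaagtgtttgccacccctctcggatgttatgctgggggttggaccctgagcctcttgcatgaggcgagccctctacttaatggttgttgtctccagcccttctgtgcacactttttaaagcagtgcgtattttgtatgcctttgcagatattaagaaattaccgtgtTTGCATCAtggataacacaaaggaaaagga
Rps27l (chr9:66946163-66946462, plus strand): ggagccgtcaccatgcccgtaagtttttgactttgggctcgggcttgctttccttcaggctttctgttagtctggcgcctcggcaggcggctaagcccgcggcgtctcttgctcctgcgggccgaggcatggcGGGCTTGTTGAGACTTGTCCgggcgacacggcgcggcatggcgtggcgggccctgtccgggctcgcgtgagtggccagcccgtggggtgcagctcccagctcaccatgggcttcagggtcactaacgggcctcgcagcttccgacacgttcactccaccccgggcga

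The Rps27l site lies 117 to 98 bases before the start, and 0.0883% of 32851 promoter windows hold a site with at most 1 mismatch. Among the other p53 targets listed below, 3 of 34 windows did, belonging to Ccng1, Cdkn1a and Gtse1. The best matches in Phlda3 and Sesn2 had 5 mismatches, which 76.6% of windows reach, and the Polk window shown had 3, which 6.29% reach. The window of the other Polk start had 6 mismatches at best and held neither of the other motifs. The element TTGCATCA began at position 21 of the Polk transcript and was present in 0.895% of windows. The core ACGTG, present in 19.6% of windows, began 187 bases before the Ddit4 start and, on the minus strand, at position 28 of the Rps27l transcript. None of these matches overlapped another.

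What 20 Gy changed over both hosts was examined on the 4 pools. Phlda3, Sesn2 and Polk rose in irradiated tumours, Phlda3 and Sesn2 more than 3-fold and Polk by less, and no member fell. The 3 called higher of 9 members compare with 1.55% of 11345 genes called higher and 0.353% called lower by limma at an adjusted p under 0.05. The median log2 difference of the members was 0.43, that of all genes tested -0.018. Arrays of irradiated tumours lay above those of untreated tumours in both hosts for 5 of 9 members (Sesn2, Ddit4, Polk, Phlda3 and Rps27l), against 15.1% of all genes, and below them in both hosts for 1 member (Xpc), against 18.9% of all genes.

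**Figure D1:**
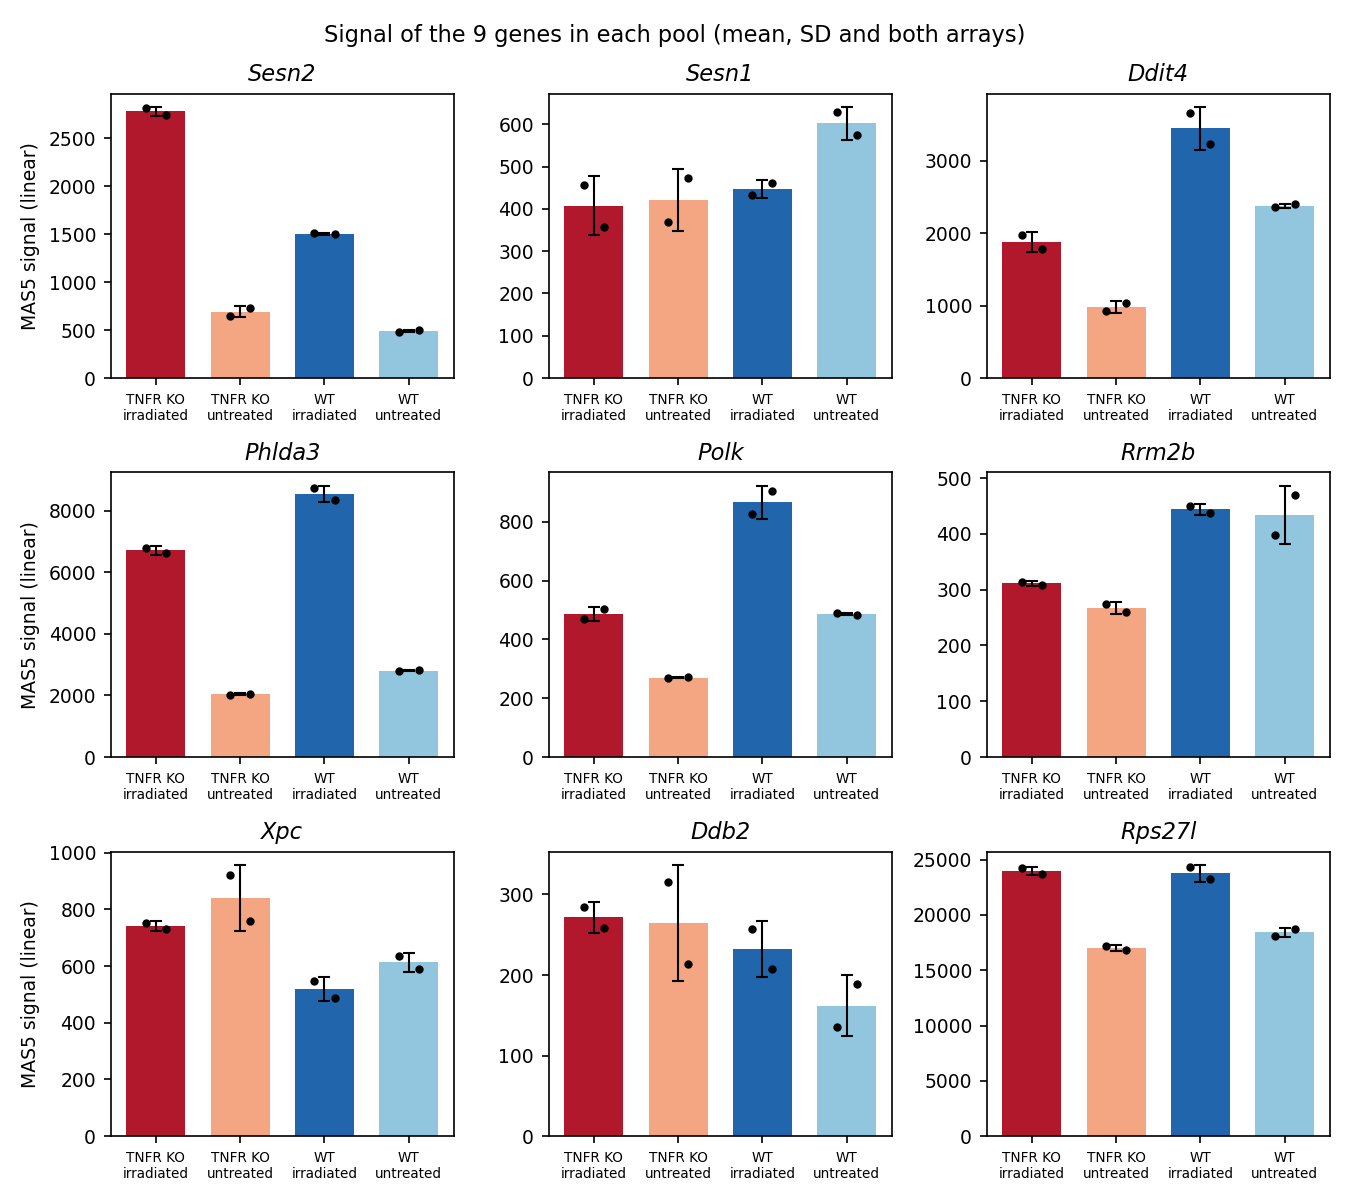
MAS5 signal on a linear axis for the 9 genes, by pool: bars are pool means, whiskers the SD and points the 2 arrays (technical duplicates). Both irradiated pools stand above both untreated pools for Phlda3, Sesn2 and Rps27l, whereas Rrm2b and Ddit4 are ordered by host, with both WT pools above both TNFR KO pools.

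Sesn2, a sestrin that senses leucine and restrains mTORC1, had the highest radiation difference of the 9. Its signal was 2815 and 2749 on the irradiated arrays of TNFR KO hosts against 649 and 731 on the untreated ones, and 1512 and 1499 on the irradiated arrays of WT hosts against 482 and 498 on the untreated ones. The pools did not overlap, and the order was TNFR KO irradiated, WT irradiated, TNFR KO untreated and WT untreated. Over both hosts Sesn2 rose 3.46-fold (log2 difference 1.79 ± 0.17 (SE), adjusted p = 0.000458 in limma). Its second probe set, dimmer and more variable, averaged 399 in the irradiated against 89.5 in the untreated TNFR KO pool and 306 in the irradiated against 99.4 in the untreated WT pool, a log2 difference of 1.82 over both hosts.

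Sesn1, the sestrin first described as a p53 target, did not follow Sesn2. Its signal was 457 and 358 on the irradiated arrays of TNFR KO hosts against 370 and 473 on the untreated ones, which overlap. In WT hosts it was 432 and 462 irradiated against 630 and 575 untreated, so the irradiated arrays were lower there without overlap. The difference over both hosts did not pass (log2 difference -0.23 ± 0.17, 95% interval -0.61 to 0.15, adjusted p = 0.532 in limma). Of its 2 other probe sets that reached the level for testing, 1 gave -0.23 and 1 gave 0.076. The third sestrin gene, Sesn3, differed by -0.096 ± 0.16 (adjusted p = 0.821).

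Ddit4, also called REDD1, restrains mTORC1 through the TSC complex and answers hypoxia and glucocorticoids as well as DNA damage. It read 1976 and 1785 in irradiated against 924 and 1038 in untreated TNFR KO tumours, and 3654 and 3236 in irradiated against 2359 and 2399 in untreated WT tumours. Irradiated arrays were higher in each host, yet both WT pools lay above both TNFR KO pools. Over both hosts the log2 difference was 0.73 ± 0.17, short of the threshold (adjusted p = 0.0593 in limma). It passed in 5 of 17 alternatives. These were a pseudocount of 64 (adjusted p = 0.00601), the filter at the 75th percentile (0.00107) and the mean of probe sets (0.019, with its own value unchanged at 0.73). The others, the replicate block (0.0133) and 8 arrays as separate values (0.00499), count technical duplicates as replicates. It did not pass with quantile normalization (0.207), median centring (0.176), a pseudocount of 1 (0.128) or no filter (0.358). Nor did it pass whichever array was left out, at 0.68 to 0.77. Its relative Ddit4l, an mTORC1 inhibitor of muscle, rose by 1.08 ± 0.17 (adjusted p = 0.00859), with 577 and 610 in irradiated against 246 and 239.9 in untreated TNFR KO tumours and 545 and 668 in irradiated against 336 and 284 in untreated WT tumours.

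Phlda3, a small pleckstrin-homology protein that competes with Akt for membrane lipids, rose to nearly the same multiple in each host. It read 6798 and 6611 in irradiated against 2025 and 2062 in untreated TNFR KO tumours, and 8718 and 8352 in irradiated against 2796 and 2820.3 in untreated WT tumours. No pools overlapped, and the irradiated pools were the higher in both hosts. Over both hosts Phlda3 rose 3.14-fold (log2 difference 1.65 ± 0.16, adjusted p = 0.000477). Its relative Phlda1 differed by 0.074 ± 0.16 (adjusted p = 0.862), and Phlda2 had pool means of 13.35 to 28.95, too dim to be tested.

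Polk, the translesion polymerase kappa that copies past bulky lesions, read 469 and 504 in irradiated against 269 and 271 in untreated TNFR KO tumours. In WT tumours it read 827 and 905 irradiated against 489 and 484 untreated. The irradiated TNFR KO pool and the untreated WT pool overlapped, and the other neighbours in the order did not. Over both hosts Polk rose 1.76-fold (log2 difference 0.81 ± 0.16, adjusted p = 0.0323), with 0.41 on its other probe set. Polh, the translesion polymerase eta, differed by -0.47 ± 0.16 (adjusted p = 0.183).

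Rrm2b, also called p53R2, is the small subunit of ribonucleotide reductase that supplies nucleotides outside S phase. It read 314 and 309 in irradiated against 274 and 260.2 in untreated TNFR KO tumours, and 451 and 437 in irradiated against 397 and 471 in untreated WT tumours. The treatments overlapped in WT hosts, and all TNFR KO arrays lay below all WT arrays. Over both hosts its radiation difference was 0.12 ± 0.16 (95% interval -0.24 to 0.48, adjusted p = 0.752), and it turned to -0.021 with arrays centred on the median and to -0.0057 with the mean of probe sets. Its 3 other probe sets gave -0.19 to 0.096. The S-phase subunit Rrm2 differed by -0.041 ± 0.16 (adjusted p = 0.929) and the large subunit Rrm1 by -0.24 ± 0.17 (adjusted p = 0.501).

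Xpc, which finds distorted DNA for nucleotide excision repair, had 1 probe set. It read 754 and 730.4 in irradiated against 923 and 759 in untreated TNFR KO tumours, and 549 and 488 in irradiated against 637 and 589 in untreated WT tumours. The irradiated arrays were the lower in each host, but the difference over both hosts did not pass (-0.20 ± 0.16, 95% interval -0.56 to 0.15, adjusted p = 0.564). Its partners Rad23b and Cetn2 differed by -0.038 ± 0.16 (adjusted p = 0.935) and -0.23 ± 0.16 (adjusted p = 0.515).

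Ddb2, which binds ultraviolet lesions together with Ddb1, was variable between duplicates. It read 285 and 258 in irradiated against 315 and 213 in untreated TNFR KO tumours, and 257 and 208 in irradiated against 135 and 189 in untreated WT tumours. The treatments overlapped in TNFR KO and not in WT hosts. Its difference over both hosts was 0.27 ± 0.17 (95% interval -0.11 to 0.66, adjusted p = 0.464), with 0.055 on the other probe set, and Ddb1 differed by 0.059 ± 0.16 (adjusted p = 0.891).

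Rps27l, a relative of the ribosomal protein S27, was bright in every pool. It read 24232 and 23689.5 in irradiated against 17170.2 and 16830.5 in untreated TNFR KO tumours, and 24298 and 23246 in irradiated against 18131.5 and 18701.5 in untreated WT tumours. The irradiated pools overlapped each other and lay above both untreated pools. Over both hosts its log2 difference was 0.43 ± 0.16 (95% interval 0.074 to 0.79), short of the threshold (adjusted p = 0.217 in limma), and its 2 other probe sets gave 0.43 and 0.40. The difference was 0.25 with quantile normalization and 0.29 with arrays centred on the median. Rps27l was called only with technical duplicates counted as replicates, in the replicate block (adjusted p = 0.0118) and with 8 arrays as separate values (0.00385). Probe sets of this gene can read near-identical sequences of Rps27, for which the probe set used was dim and uneven, at 268 and 347 in irradiated against 473 and 184 in untreated TNFR KO tumours and at 430 and 249.7 in irradiated against 159.7 and 155 in untreated WT tumours.

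**Figure D2:**
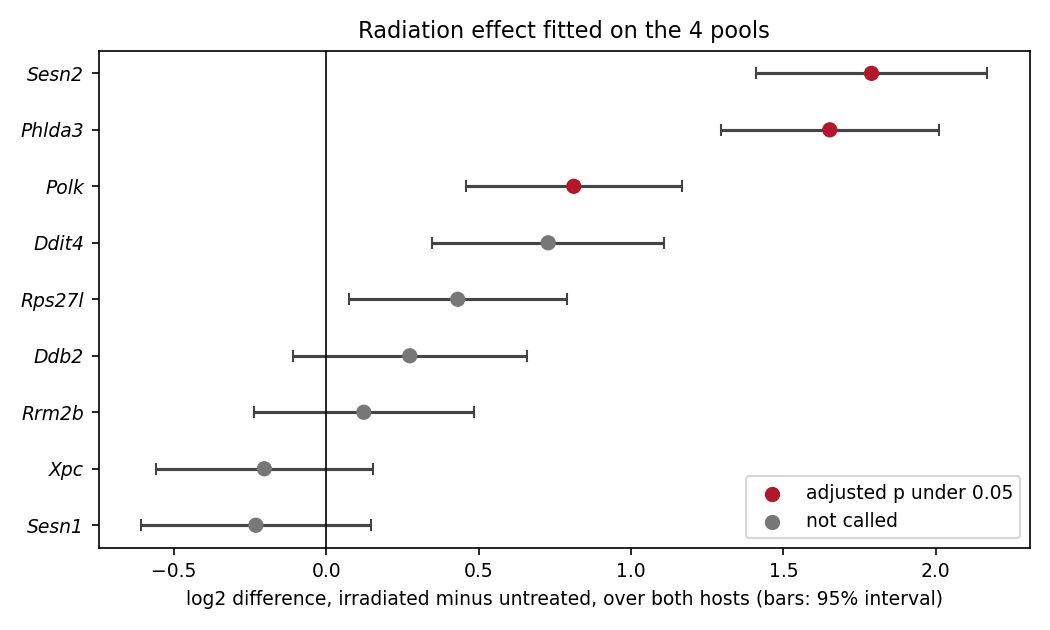
Log2 difference of the 9 genes, irradiated minus untreated over both hosts, from limma on the 4 pool means, with 95% intervals as bars. Sesn2 (1.79), Phlda3 (1.65) and Polk (0.81) are marked as called, Ddit4 (0.73) and Rps27l (0.43) have intervals above 0 without passing the adjustment (0.25 for Rps27l with quantile normalization), and the intervals of Ddb2, Rrm2b, Xpc and Sesn1 include 0, the point for Rrm2b turning below 0 with arrays centred on the median.

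This fit takes its error from how far the 2 hosts diverged in their response to irradiation, mostly over all genes together. A gene's own divergence gave 1 residual degree of freedom, against 9.52 prior ones shared by all genes. The 3 calls depend on the arrays in the fit. Without WT irradiated replicate 1 none was called, Sesn2 standing at 1.79 (adjusted p = 0.0638), Phlda3 at 1.64 (0.0576) and Polk at 0.84 (0.204), and without WT untreated replicate 1 again none, at 1.78, 1.65 and 0.82 (adjusted p = 0.0839, 0.0839 and 0.218). Without WT untreated replicate 2 Sesn2 stood at 1.80 (0.0552), and without any other array Sesn2 and Phlda3 were called. The call on Polk ended whichever array was left out, with log2 differences of 0.78 to 0.84. Quantile normalization left none called (1.83 for Sesn2, 1.63 for Phlda3 and 0.89 for Polk), and so did testing all genes without a filter. With arrays centred on the median or a pseudocount of 1, Sesn2 and Phlda3 were called and Polk was not (0.67 and 0.84).

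The same probe sets were then read within each host, where the test sets a difference between 2 pools against the spread of duplicate arrays and also asks for 2-fold. Phlda3 and Sesn2 passed as higher in TNFR KO hosts and in WT hosts, 2 of 9 members in each, against 0.881% of all genes called higher in TNFR KO and 2.25% in WT hosts. No member was called lower, against 0.485% and 0.203% of all genes. Sesn2 differed by 1.99 ± 0.072 in TNFR KO hosts (adjusted p = 0.00019) and by 1.59 ± 0.072 in WT hosts (adjusted p = 0.000296), and Phlda3 by 1.71 ± 0.056 (adjusted p = 0.000153) and 1.60 ± 0.056 (adjusted p = 0.000151). These 2 calls held within each host under every alternative tried, whichever array was left out. Polk differed by 0.81 ± 0.069 in TNFR KO and by 0.81 ± 0.069 in WT hosts, less than 2-fold in both. Ddit4 differed by 0.93 ± 0.096 in TNFR KO and by 0.53 ± 0.096 in WT hosts, and its value in TNFR KO hosts passed 2-fold without TNFR KO irradiated replicate 2 (1.00) or TNFR KO untreated replicate 2 (1.01).

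**Figure D3:**
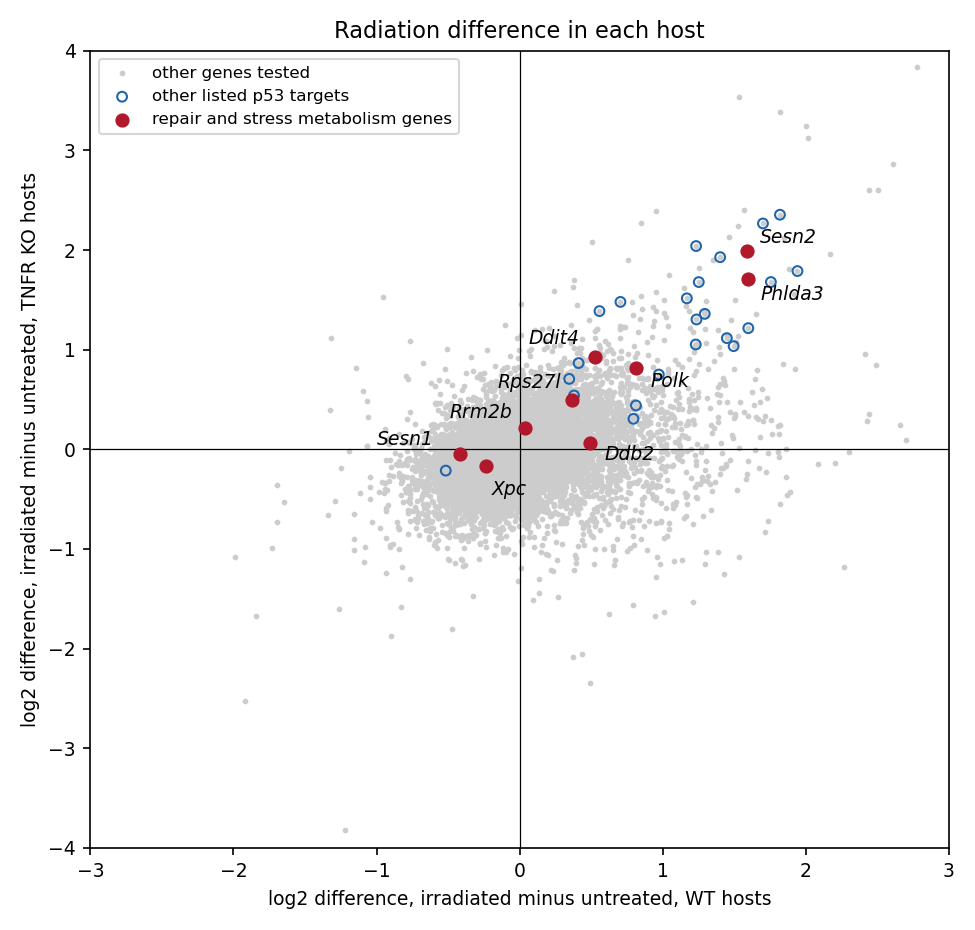
Log2 difference, irradiated minus untreated, in WT hosts (horizontal) and TNFR KO hosts (vertical) for all 11345 genes tested, with the 9 genes filled in red and the other listed p53 targets as open blue circles. Sesn2 and Phlda3 lie above 1 on both axes among the other p53 targets, Polk lies at 0.81 on both, and Sesn1, Xpc and Rrm2b lie near the centre of the cloud, the point for Rrm2b turning below 0 in WT hosts with arrays centred on the median.

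Whether the radiation effect differed between hosts was tested as the difference of the 2 effects on the 8 arrays. In limma, 0 of 9 members passed at an adjusted p under 0.05 and 2-fold, and 0.159% of all genes were called higher and 2.05% lower. An unadjusted p under 0.05 was reached by 2 of 9 members and by 28.8% of all genes. The effect in TNFR KO minus that in WT hosts was 0.40 ± 0.10 for Sesn2 (adjusted p = 0.0641) and 0.40 ± 0.14 for Ddit4 (adjusted p = 0.12). For Phlda3 it was 0.11 ± 0.079 (adjusted p = 0.409). For Ddb2 it was -0.43 ± 0.32 (adjusted p = 0.419), the widest error of the 9. This test holds array noise only, so it compares these pools and not the hosts at large.

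Tumours of TNFR KO and WT hosts were then compared over both treatments. Ddit4, Polk and Rrm2b were lower and Sesn2 and Xpc higher in tumours of TNFR KO hosts. That makes 2 of 9 called higher, against 12.0% of all genes, and 3 of 9 called lower, against 18.9% of all genes. The median log2 difference of the members was -0.32 (-0.18 with quantile normalization), that of all genes tested 0.085. TNFR KO arrays lay above WT arrays under both treatments for 3 members (Sesn2, Xpc and Ddb2), against 30.5% of all genes, and below them for 4 (Ddit4, Rrm2b, Polk and Phlda3), against 26.1% of all genes.

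The poly-A spike-in transcripts added to the RNA separated the same arrays: dap averaged 14.4 on the TNFR KO arrays and 17814 on the WT arrays, whereas the hybridisation control cre, which enters later, averaged 18797 and 19326. Target preparation and host therefore cannot be told apart in the host comparison. Within WT hosts dap averaged 22265 on irradiated and 13363 on untreated arrays, and 18S ribosomal probe sets averaged 944 on irradiated and 529 on untreated arrays of TNFR KO hosts and 339.97 on irradiated and 293 on untreated arrays of WT hosts. The part of these differences in the results above was not tested.

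Ddit4 was lower in TNFR KO hosts by the widest margin of the 9, 2.10-fold (log2 difference -1.07 ± 0.17, adjusted p = 0.00141). The gap was -1.27 ± 0.096 in untreated tumours (adjusted p = 0.000272), the only member called there, against 6.25% of all genes called lower and 2.06% higher, and -0.87 ± 0.096 in irradiated tumours. Polk was 1.76-fold lower (-0.81 ± 0.16, adjusted p = 0.00411), by the same -0.81 in untreated and irradiated tumours, and by -0.97 on its other probe set. Rrm2b was 1.49-fold lower (-0.58 ± 0.16, adjusted p = 0.0224), with -1.05 to -0.19 on its other probe sets. The call on Rrm2b ended without TNFR KO irradiated replicate 2 (-0.57), WT irradiated replicate 1 (-0.57), WT untreated replicate 1 (-0.64) or WT untreated replicate 2 (-0.52), and with quantile normalization (-0.45, adjusted p = 0.0747).

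Sesn2 was 1.60-fold higher in TNFR KO hosts (0.68 ± 0.17, adjusted p = 0.0138), by 0.48 in untreated and 0.88 in irradiated tumours. Its dimmer probe set gave 0.22, and the call ended with the mean of probe sets (0.45, adjusted p = 0.0525) and without WT untreated replicate 1 (0.67, adjusted p = 0.0553). Xpc was 1.39-fold higher (0.47 ± 0.16, adjusted p = 0.0466), a call that ended whichever array but TNFR KO untreated replicate 2 was left out, at 0.40 to 0.51, and that also ended with arrays centred on the median (0.39) and a pseudocount of 1 (0.48). In irradiated tumours 0 of 9 members reached 2-fold in limma, against 0.793% of all genes called higher and 7.43% lower. An unadjusted p under 0.05 was reached there by 6 of 9 members and by 61.3% of all genes.

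Phlda3, Ddb2, Sesn1 and Rps27l were not called between hosts. Phlda3 differed by -0.40 ± 0.16 (adjusted p = 0.0821) and Ddb2 by 0.43 ± 0.17 (adjusted p = 0.0814). Phlda3 was called lower by limma in 4 of 17 alternatives. These were a pseudocount of 64 (adjusted p = 0.0418), the filter at the 75th percentile (0.0497), the replicate block (0.00218) and 8 arrays as separate values (0.000635). The block and separate values count technical duplicates as replicates. It was not called with quantile normalization (0.0728), median centring (0.133), a pseudocount of 1 (0.102), no filter (0.245) or the mean of probe sets (0.074). Nor was it called whichever array was left out, at -0.42 to -0.39. Sesn1 differed by -0.32 ± 0.17 (adjusted p = 0.169), with -0.75 and -0.40 on its other probe sets at the level for testing. It was called lower with the mean of probe sets (-0.45, adjusted p = 0.0445) and stood at -0.18 with quantile normalization. Rps27l differed by -0.052 ± 0.16 (95% interval -0.41 to 0.31, adjusted p = 0.826), the closest of the 9 to equal signal in the 2 hosts.

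**Figure D4:**
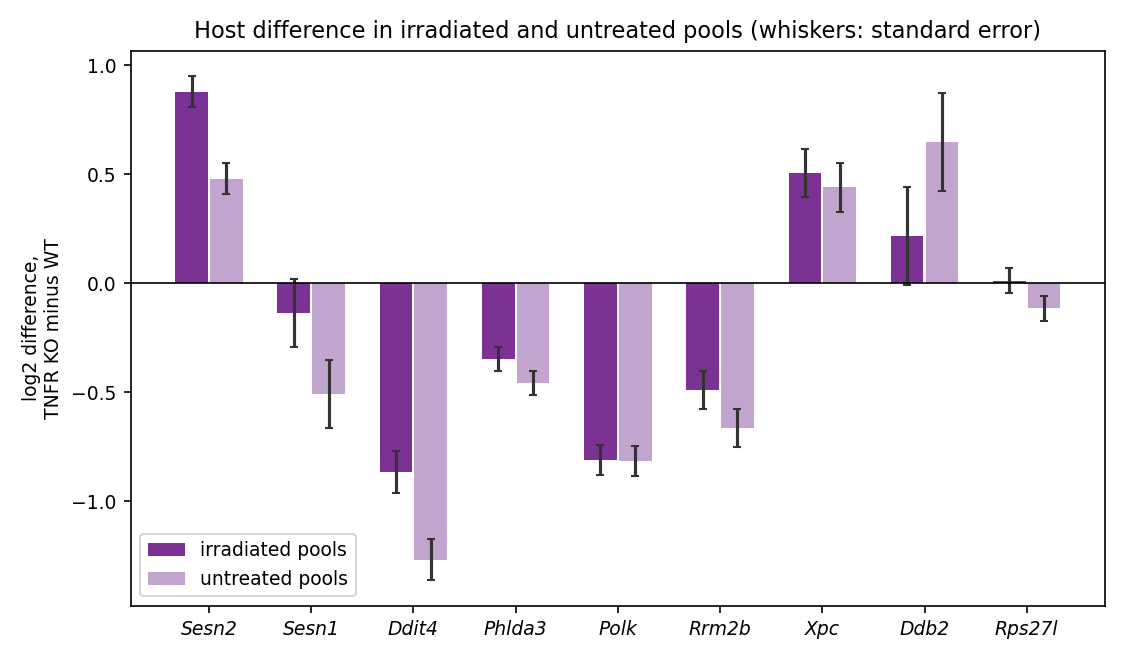
Log2 difference of the 9 genes, TNFR KO minus WT, in irradiated pools (dark bars) and untreated pools (light bars), with whiskers for the limma standard error on duplicate arrays. Ddit4 (-0.87 and -1.27), Polk (-0.81 in both), Rrm2b (-0.49 and -0.66) and Phlda3 (-0.35 and -0.46) lie below 0 and Sesn2 (0.88 and 0.48), Xpc (0.51 and 0.44) and Ddb2 (0.22 and 0.65) above it; the bar of Sesn1 in irradiated pools turns to 0.016 with quantile normalization.

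The probe sets of a gene mostly gave the same direction for radiation. For Sesn2, Polk, Ddb2 and Rps27l all probe sets lay above 0. Those of Rps27l spanned only 0.40 to 0.43, but they can share signal from near-identical sequences of Rps27 and are not independent checks. For Sesn1 and Rrm2b they lay on both sides of 0.

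**Figure D5:**
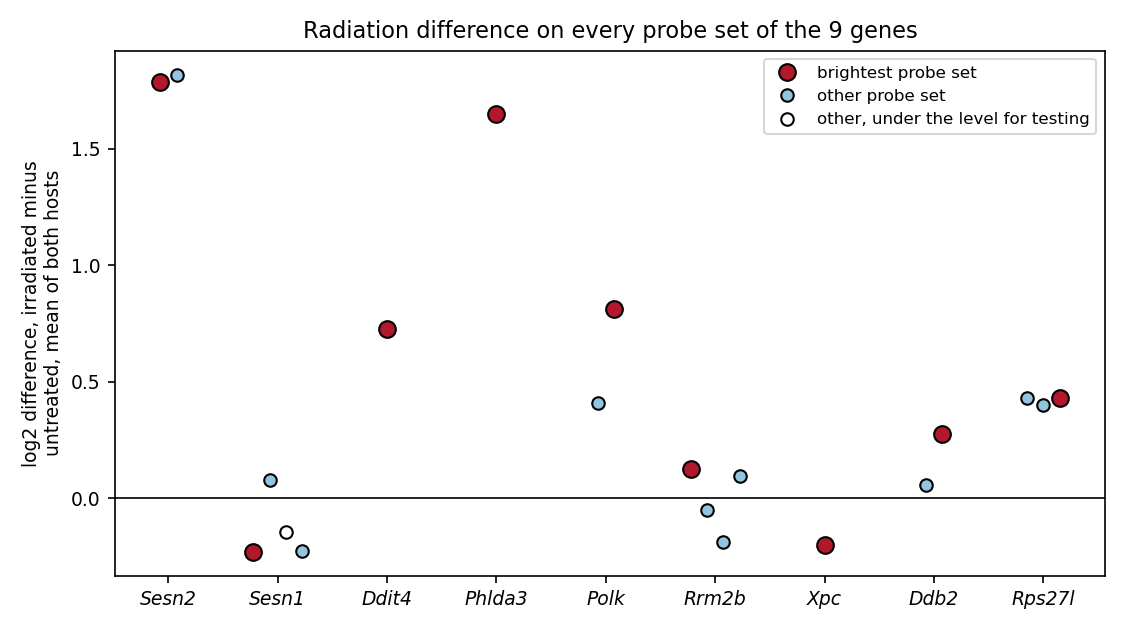
Radiation difference (log2, irradiated minus untreated, mean of both hosts) on all 20 probe sets of the 9 genes, with the brightest in red, other probe sets in blue and 1 Sesn1 probe set under the level for testing in white. The 2 Sesn2 probe sets read 1.79 and 1.82 and the 2 Polk probe sets 0.81 and 0.41, while those of Sesn1 and Rrm2b scatter about 0.

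Other genes of the pathway were set beside the 9. Of 30 further p53 targets listed, 28 were on the array and 23 tested, of which 17 rose over both hosts and none fell, against 1.55% and 0.353% of all genes, with a median log2 difference of 1.27. As for the members, none of the 23 was called with quantile normalization, with no filter, without WT irradiated replicate 1 or without WT untreated replicate 1. The count was 3 without WT untreated replicate 2, 3 when the second irradiated TNFR KO array was left out, 9 without TNFR KO untreated replicate 1, and 12 to 15 without any of the remaining arrays. Those with the largest rises were Trp53inp1, a stress-induced p53 cofactor (2.09 ± 0.18, adjusted p = 0.00032), the antiproliferative gene Btg2 (1.98 ± 0.18, adjusted p = 0.000426), the cell-cycle inhibitor Cdkn1a (1.87 ± 0.16, adjusted p = 0.00032) and the kinase gene Plk2 (1.72 ± 0.16, adjusted p = 0.000457). Mdm2, which restrains p53, rose by 0.97 ± 0.21 (adjusted p = 0.0437). After their values were seen, 2 genes of that list were added for their roles. Ercc5, an endonuclease of nucleotide excision repair, rose by 1.41 ± 0.17 (adjusted p = 0.00209). Tigar, a p53 target that limits glycolysis, was the lowest of the list at -0.36 ± 0.17 (adjusted p = 0.306).

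Regulators other than p53 are known for Sesn2 and Ddit4, and their targets were read as well. Of 12 targets of ATF4, the factor of the integrated stress response, 0 were called by limma for irradiation over both hosts (2 at an unadjusted p under 0.05, median 0.16). In WT hosts alone 1 of the 12 was called higher, against 2.25% of all genes. None was called in TNFR KO hosts, where 0.881% of all genes were called higher and 0.485% lower. For the difference between the effects 2 of the 12 were called lower, against 2.05% of all genes. Over both hosts 0 of 10 hypoxia targets were called (4 unadjusted, median 0.23) and 0 of 7 glucocorticoid targets (2 unadjusted, median 0.31). Of all genes, 16.7% had an unadjusted p under 0.05 there. Within WT hosts, 7 of 12 ATF4, 8 of 10 hypoxia and 6 of 7 glucocorticoid targets had an unadjusted p under 0.05 in limma. The share of all genes there was 39.9%. Within TNFR KO hosts these counts were 8, 5 and 2, and the share of all genes was 39.0%. The tests within a host hold array noise only. Over both hosts, 1 ATF4 target was called higher with median centring, a pseudocount of 64, the filter at the 75th percentile or the mean of probe sets. Of the hypoxia targets, 2 were called higher with a pseudocount of 64 and 1 with the filter at the 75th percentile. With the replicate block, 1 ATF4, 3 hypoxia and 2 glucocorticoid targets were called higher. With 8 arrays as separate values, these counts were 4, 6 and 2. The block and separate values count technical duplicates as replicates. Between hosts 3 ATF4 targets were higher in TNFR KO tumours (Trib3 at 0.57, Atf4 at 0.49 and Sars at 0.47), 1 hypoxia target was lower (P4ha1 at -0.59), and of the glucocorticoid targets Tsc22d3 was higher (0.58) and Klf9 lower (-0.59), where 12.0% of all genes were called higher and 18.9% lower. Among 22 partners and relatives of the members tested, 1 rose over both hosts (Ddit4l) and none fell, against 1.55% and 0.353% of all genes, with a median of -0.039. No partner was called with quantile normalization, with no filter, or when any of 7 arrays was left out. Without WT irradiated replicate 2, 2 were called higher, and with the replicate block 3 were higher and 1 lower.

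Of 7 melanocyte markers all 7 were tested, with a summed signal between 144990 and 180806 on the 8 arrays. Mitf, the master regulator of melanocytes, named after its values were seen, was lower in TNFR KO tumours (-0.89 ± 0.17, adjusted p = 0.00317), averaging 4886 and 6009 in irradiated and untreated TNFR KO tumours and 8186 and 12313 in irradiated and untreated WT tumours. It was the only 1 of the 7 called between hosts, and the others differed by -0.10 (Tyrp1) to 0.052 (Sox10). Not all listed markers of the other cell types were on the array, and not all of those on it were tested. Transcripts of other cells moved with the groups. The summed signal of 5 erythroid markers (3 tested) was 4500 to 5151 on irradiated against 590 to 682 on untreated TNFR KO arrays, and 1925 to 1973 on irradiated against 499 to 664 on untreated WT arrays. That of 8 skeletal muscle markers (5 tested) was 452 to 524 on irradiated against 1153 to 1308 on untreated TNFR KO arrays, and 830 to 962 on irradiated against 2986 to 3073 on untreated WT arrays. Neutrophil markers (4 on the array, 3 tested) summed to 1014 to 1046 on irradiated against 862 to 904 on untreated TNFR KO arrays, and to 23008 to 23782 on irradiated against 3495 to 3868 on untreated WT arrays. Those of fibroblasts (7, 5 tested) summed to 9919 to 9948 on irradiated and 14745 to 15103 on untreated TNFR KO arrays, and to 7193 to 7278 on irradiated and 4592 to 4704 on untreated WT arrays. Of the 5 tested, 1 was called higher and 1 lower in irradiated TNFR KO than in irradiated WT tumours, against 0.793% and 7.43% of all genes. In untreated tumours 4 of the 5 were called higher in TNFR KO hosts, against 2.06% of all genes. Over both treatments 4 were called higher, against 12.0%, and for the difference between the radiation effects 4 were called lower, against 2.05%. Summed over the group means, endothelial markers (6 of 6 tested) read 2271 and 2788 in irradiated and untreated TNFR KO tumours and 1496 and 1335 in irradiated and untreated WT tumours, macrophage markers (7 of 8 tested) 7527 and 11960 against 9185 and 5567, and keratinocyte markers (5 of 8 tested) 926 and 3347 against 649 and 483. Although the keratinocyte sum was higher in irradiated than in untreated WT tumours, 1 of the 5 markers tested was called lower there (-1.22). A sum thus does not stand for each of its markers. The part of these cells in the values of the 9 genes was not tested.

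The genes whose profile over the 4 pools lay closest to the mean of the 9 members were Lrch4, Mettl6, Il7r, Ypel2 and BC064078. Their Euclidean distances on the log2 scale, each profile centred on its own mean, were 0.053 to 0.082, while the members themselves lay 0.21 (Rps27l) to 1.48 (Sesn2) from that mean. The mean profile was 0.24 and -0.42 in the irradiated and untreated TNFR KO pools and 0.36 and -0.17 in the irradiated and untreated WT pools.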

How the data were processed

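Whole-tumour RNA of 4 pools was measured on 8 Affymetrix arrays, 2 per pool. The authors deposited each array's signal intensity, linear and not log-transformed, made with MAS5 per the submitters' processing notes, which name no version. From the values, all arrays share one scaling target, with equal 2%-trimmed means. The number of arrays limits the precision.

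Signals were transformed as log2(signal + 16), so fold changes of dim genes are understated. Annotation gave 34945 probe sets with 1 gene and 932 with several, besides 64 controls. Genes were tested with limma 3.58.1 in R 4.3.3, adjusted by Benjamini-Hochberg over all 11345 genes at or above the level for testing. Effects over both hosts or treatments used 4 pool means (1 residual degree of freedom, 9.52 prior), called at an adjusted p under 0.05. Single-pool comparisons used 8 arrays as 4 groups (4 residual degrees of freedom) and also required 2-fold. Tests were two-sided and were tested on simulated data. Errors are SD for signals (n = 2 technical duplicates) and SE for log2 differences.

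The 16 gene lists, the members among them, were chosen with earlier results of these data known. Named were all members, at most 4 called genes of a list, partners of members, Cdkn1a and Mdm2, and the 5 genes of closest profile; genes named outside that rule are said to be so. Figures used matplotlib 3.10.9. Results were recomputed after median centring or quantile normalization of the arrays, with pseudocounts of 1 and 64, with the filter dropped or raised to the 75th percentile, averaging probe sets per gene, treating the 8 arrays as separate values, with a replicate block, and leaving out each array. For effects over both hosts or treatments, separate values and the replicate block count technical duplicates as replicates.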

Additional observations from a re-analysis of the deposited data

How the results depend on the processing

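For radiation over both hosts the count of members called higher was 3, and it was 0 with quantile normalization, 0 with no filter, 5 with 8 arrays as separate values, 5 with the replicate block (Ddit4 and Rps27l added) and 0 to 2 leaving out each array. For host over both treatments, 2 members were higher, with 1 when arrays were centred on the median, 1 with pseudocount 1, 1 with the mean of probe sets, 0 with no filter, and 0 to 2 leaving out each array. There 3 were lower, with 0 under no filter and 2 to 3 leaving out each array. In untreated tumours 1 member was lower (Ddit4), and 2 with arrays centred on the median (Polk added). For radiation in TNFR KO hosts 2 were higher, and 2 to 3 leaving out each array. Why calls were lost was not tested. The calls gained with 8 arrays as separate values or the replicate block rest on technical duplicates counted as replicates. Same-numbered duplicates did not deviate together (correlations of -0.032 to 0.052 between groups), so the numbers pair no arrays, and the block changed no other count of members by over 1.5 times.

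Signs turned for differences that were not called. The log2 difference of Rrm2b was 0.12 over both hosts, -0.021 with arrays centred on the median and -0.0057 with the mean of probe sets. In WT it was 0.037, -0.22 and -0.17 under these, and -0.081 to 0.15 leaving out each array. The difference between radiation effects of Polk was 0.0030, with -0.013 under quantile normalization, -0.034 with pseudocount 64, -0.12 with the mean of probe sets and -0.061 to 0.067 leaving out each array, and that of Xpc (0.066) was -0.073 to 0.20 leaving out each array. With quantile normalization Sesn1 was 0.016 between hosts when irradiated (-0.14 otherwise; -0.31 to 0.033 leaving out each array) and 0.021 for radiation in TNFR KO hosts (-0.045 otherwise; -0.22 to 0.13). Leaving out each array, Ddb2 in TNFR KO hosts (0.059) ranged over -0.21 to 0.33, and Rps27l between irradiated hosts (0.012) over -0.020 to 0.044.

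Over all genes, 176 were higher and 40 lower after radiation over both hosts, with 0 to 1062 and 0 to 1409 over the alternatives that keep all arrays, and 0 to 100 and 0 to 17 leaving out each array. Between hosts 1364 and 2140 became 0 to 3471 and 0 to 2975, or 500 to 983 and 1534 to 1921 leaving out each array. In single pools, 255 higher and 23 lower in WT became 97 to 316 and 7 to 106, and 100 and 55 in TNFR KO 57 to 141 and 15 to 73. Between hosts, 234 and 709 untreated became 91 to 370 and 406 to 1118, and 90 and 843 irradiated 35 to 178 and 447 to 952. The differences between effects (18 and 233) became 7 to 101 and 89 to 242, or 6 to 20 and 148 to 189 leaving out each array. Centring arrays on the median moved the median of all genes by -0.14 for radiation over both hosts, -0.26 for radiation in WT, -0.20 between untreated hosts and 0.23 for the difference between effects. The share of calls that were higher was 81.5% for radiation over both hosts and 50.8% with centring. With quantile normalization it was 100%, but only 2 genes were called higher and 0 lower. With centring it was 55.6% in place of 91.7% in WT, 19.4% in place of 38.9% between hosts, 10.3% in place of 24.8% untreated, and 38.0% in place of 7.17% for the difference between effects. The median of the members for radiation over both hosts, an addition after the data were seen, was 0.27 with quantile normalization and 0.29 with centring.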
